A study of Xenopus laevis with 6 samples.

Results

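The genes described here pattern the eye field and the forebrain of the frog embryo, and they were followed after injection of a neil2 Morpholino into Xenopus laevis embryos. Of 36 gene names, 34 were found among the deposited features, and the names rx1 and otx5 matched none. Names were matched exactly, so an unmatched name does not show that its gene was not measured under another name. X. laevis is allotetraploid, and the suffixes .L and .S of a name mark its homeologs, the gene copies carried by the long and by the short chromosome of a pair. The 34 genes were represented by 66 of 44958 features, each of which was compared between the libraries of both groups.

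Neil2 is a DNA glycosylase of base excision repair, the pathway that removes oxidized bases from DNA. Embryos were injected into the animal hemisphere at the 1-cell stage with 40 ng of neil2 MO or of control MO, and they were collected at stage 23, the early tailbud. Morpholinos (MOs) are synthetic oligonucleotides that bind an RNA, and the neil2 MO covers the start codon of its target. Polyadenylated RNA was sequenced from whole embryos in 3 pools of 6 embryos for neil2 MO and 3 such pools for control MO, so the control embryos were also injected. The labels do not say whether the pools came from separate clutches, and the p-values therefore measure only the spread between these pools.

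Both oligonucleotides are shown because they define the groups. They are written 5′ to 3′, and capitals mark the complement of the start codon.
neil2 MO: gtctgactgtgggaccttccggCAT
Control MO: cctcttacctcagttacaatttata
Each has 25 bases. The transcript itself does not measure a block of translation. The feature neil2.L had 5, 4 and 15 raw counts in neil2 MO replicates 1 to 3 and 3, 4 and 3 in control MO replicates 1 to 3, which is too few for a test.

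The eye field is a territory of the anterior neural plate from which the retina and the optic stalk arise. It is specified by an overlapping set of transcription factors that includes Rax, Pax6, Six3, Six6, Lhx2 and Nr2e1, within a wider anterior domain marked by Otx2. At tailbud stages the optic vesicles have formed, and further factors divide the retina into dorsal and ventral parts and the forebrain into telencephalon, hypothalamus and diencephalon. Defects of several of these genes cause absent or small eyes in vertebrates.

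The libraries held 18173652 to 24034094 counted reads in neil2 MO and 11534725 to 20655392 in control MO. Values are given below as CPM, the counts of a feature per 1000000 counted reads, always in the order of replicates 1, 2 and 3. The first principal component of the 5000 most variable features (44.9% of variance) separated the replicate 3 libraries from the others, and the second (27.6%) separated the groups. Libraries with the same replicate number deviated together from their group means, so results are also given from fits that include the replicate number as a block term. A feature was called when its adjusted p (Benjamini-Hochberg) was below 0.1 and its log2 fold change was beyond 0.5 in either direction.

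Of the eye and forebrain features 3 were lower in neil2 MO embryos by DESeq2, namely vsx1.S, mab21l2.S and nr2f2.L, and 0 were higher. Over all tested features 1.12% were called lower and 1.17% higher. With the replicate block the count was 11 lower and 0 higher, against 2.74% called lower and 3.14% called higher over all features. The 8 features added were rax.L, rax.S, nr2e1.L, fezf2.L, vsx1.L, mab21l2.L, dbx1.S and nr2f2.S. The quasi-likelihood test of edgeR without the block called 0 members, against 0.294% of all features called lower. At an unadjusted p below 0.05 that test had 16 members lower and 0 higher. The share of all features at that unadjusted p was not computed for edgeR. With the block edgeR called 20 members lower, against 5.27% of all features, and 0 higher, against 4.11% of all features. The 20 included all 11 of the blocked DESeq2 fit, and the others were six6.S, nr2e1.S, fezf2.S, mab21l1.S, arx.L, arx.S, lhx9.S, nkx2-4.L and nkx2-4.S. The counts depended on single pairs and libraries. The blocked DESeq2 fit called 0 members without both replicate 1 libraries, 2 without both replicate 2 libraries and 4 without both replicate 3 libraries, against 0.559%, 1.18% and 2.36% of all features called lower. The 2 were rax.S and vsx1.L, and the 4 were rax.L, rax.S, vsx1.S and nr2f2.L. The other features of the 11 were called in none of these fits. Without the block, DESeq2 called 9 members lower when neil2 MO replicate 2 was left out, against 0.968% of all features. It called 1 when neil2 MO replicate 3 or control MO replicate 3 was left out (1.13% and 1.14% of all features). These were mab21l1.S, which is not among the 3 features called with all libraries, and vsx1.S. It called 0 when neil2 MO replicate 1, control MO replicate 1 or control MO replicate 2 was left out (0.640%, 0.510% and 0.756%).

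**Figure D1:**
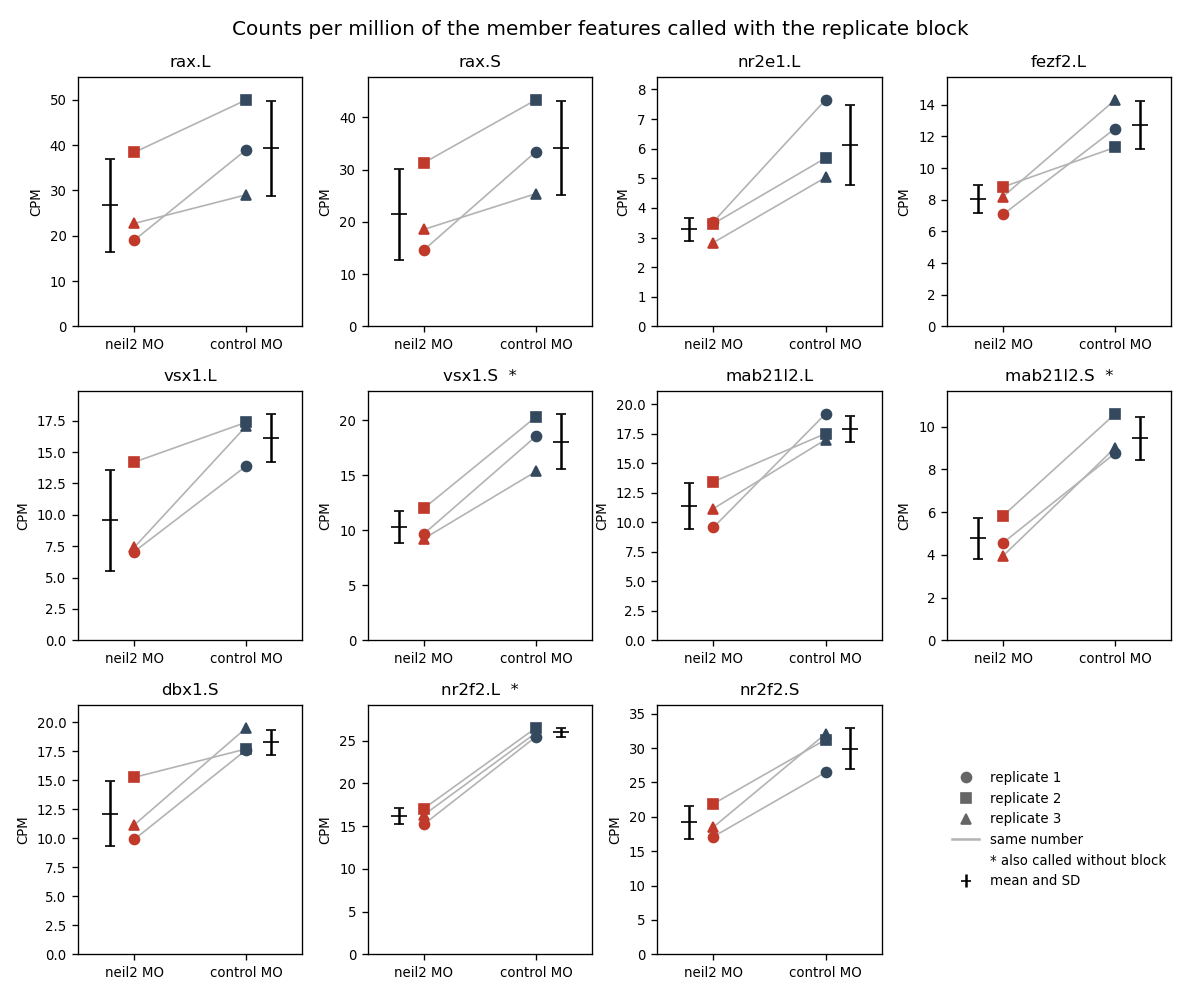
CPM of the 11 features called by DESeq2 with the replicate block, with neil2 MO libraries in red at left and control MO libraries in dark blue at right of each panel. Symbols give the replicate number, gray lines join libraries of equal number, and black bars give the mean and SD (n = 3). Every line slopes up toward control MO, and the groups overlap for rax.L, rax.S and vsx1.L. The features were chosen because they were called lower in these same libraries, so the slopes are no separate evidence.

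The eye field genes came first. The homeobox gene rax is required for formation of the retina in vertebrates and keeps retinal progenitors dividing. The feature rax.L had 19.0, 38.4 and 22.7 CPM in neil2 MO embryos, against 39.0, 50.0 and 29.0 CPM in control MO embryos. The feature rax.S had 14.6, 31.3 and 18.6 CPM in neil2 MO embryos, against 33.5, 43.4 and 25.4 CPM in control MO embryos. In both homeologs the replicate 2 libraries were the highest of their group, and neil2 MO replicate 2 lay above control MO replicate 3, so the groups overlapped while neil2 MO was lower in each of the 3 pairs. Without the block the log2 fold changes were -0.50 ± 0.29 (SE) for rax.L and -0.60 ± 0.30 (SE) for rax.S, and DESeq2 called neither (adjusted p = 0.635 and 0.473). With the block they were -0.53 (adjusted p = 0.0321) and -0.65 (adjusted p = 0.00901), and both were called. The gap was widest in replicate 1, with log2 CPM differences of -1.02 for rax.L and -1.17 for rax.S, and it was between -0.35 and -0.46 in the other pairs. Without both replicate 1 libraries the blocked DESeq2 fit gave -0.31 for rax.L and -0.41 for rax.S and called neither (adjusted p = 0.9999 and 0.947), and without both replicate 2 libraries it called rax.S only (adjusted p = 0.0937, against 0.192 for rax.L). Without the block, the estimates lay between -0.27 (without control MO replicate 2) and -0.89 (without neil2 MO replicate 2) for rax.L and between -0.37 and -1.01 in the same fits for rax.S. Both copies were called in the fit without neil2 MO replicate 2 (adjusted p = 0.0803 and 0.0328).

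The orphan nuclear receptor gene nr2e1, the vertebrate tailless gene, is active in retinal and neural progenitors. The feature nr2e1.L had 3.53, 3.47 and 2.83 CPM in neil2 MO embryos, against 7.65, 5.68 and 5.03 CPM in control MO embryos. All neil2 MO libraries lay below all control MO libraries. Its log2 fold change was -0.86 ± 0.31 (SE), with an adjusted p by DESeq2 of 0.163 without the block and 0.0717 with it. The feature nr2e1.S had 4.78, 6.49 and 4.87 CPM in neil2 MO embryos, against 9.97, 7.54 and 6.59 CPM in control MO embryos. Its groups did not overlap either, by a narrow margin, and its log2 fold change of -0.53 ± 0.28 (SE) was not called with or without the block by DESeq2 (adjusted p = 0.311 and 0.567).

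Pax6, a paired-domain factor needed for eye formation from flies to mammals, was not called in either copy. The feature pax6.L had 26.2, 39.0 and 30.9 CPM in neil2 MO embryos, against 34.3, 46.9 and 38.1 CPM in control MO embryos. The feature pax6.S had 14.7, 21.0 and 18.3 CPM in neil2 MO embryos, against 16.3, 24.9 and 27.2 CPM in control MO embryos. Each pair had its lower value in neil2 MO, but the groups overlapped. The log2 fold changes were -0.26 ± 0.22 (SE) for pax6.L and -0.28 ± 0.25 (SE) for pax6.S, and the adjusted p by DESeq2 with the block was 0.333 and 0.478.

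The sine oculis family genes six3 and six6 encode homeodomain factors of the anterior neural plate, where six3 acts in forebrain identity and six6 in growth of the retina. The feature six3.L had 13.4, 15.0 and 12.5 CPM in neil2 MO embryos, against 18.3, 19.7 and 15.9 CPM in control MO embryos. The feature six3.S had 20.2, 24.5 and 27.0 CPM in neil2 MO embryos, against 27.9, 30.1 and 30.1 CPM in control MO embryos. The groups of both six3 copies were separate, with log2 fold changes of -0.34 ± 0.21 (SE) and -0.24 ± 0.19 (SE). The feature six6.L had 12.8, 16.6 and 16.4 CPM in neil2 MO embryos, against 17.8, 19.4 and 18.5 CPM in control MO embryos. The feature six6.S had 1.96, 4.07 and 2.62 CPM in neil2 MO embryos, against 5.33, 4.47 and 4.33 CPM in control MO embryos. The copies differed in size of change, at -0.22 ± 0.21 (SE) for six6.L and -0.65 ± 0.36 (SE) for six6.S on the log2 scale, but a difference between them was not called. None of these 4 features was called by DESeq2 with or without the block. Only six6.S was called by edgeR with the block (adjusted p = 0.0865).

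The LIM homeodomain gene lhx2 is needed in mouse for the optic vesicle to become the optic cup. The feature lhx2.L had 12.39, 14.6 and 15.8 CPM in neil2 MO embryos, against 17.3, 20.6 and 21.8 CPM in control MO embryos. The feature lhx2.S had 7.17, 9.46 and 10.4 CPM in neil2 MO embryos, against 9.30, 10.4 and 8.15 CPM in control MO embryos. The groups were separate for lhx2.L and mixed for lhx2.S. The log2 fold changes were -0.42 ± 0.21 (SE) for lhx2.L and 0.01 ± 0.25 (SE) for lhx2.S, and DESeq2 called neither with or without the block. The sign of lhx2.S is not fixed, as it turned negative under 4 other settings that kept all libraries.

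The T-box gene tbx3 encodes a repressor that is expressed in the eye field of Xenopus and in many other embryonic tissues. Its CPM ranged from 80.6 to 88.0 in neil2 MO and from 75.7 to 84.8 in control MO for tbx3.L. For tbx3.S it ranged from 62.2 to 68.7 in neil2 MO and from 61.4 to 65.3 in control MO. Both copies had a log2 fold change of 0.09, with SEs of 0.16 and 0.15, and were not called.

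Across the 14 eye field features the median log2 fold change was -0.31, and 11 were lower in neil2 MO in all 3 pairs, where 26.5% of all features were. All neil2 MO values lay below all control MO values in 7 of them, against 10.3% of all features. DESeq2 called 0 lower without the block and 3 with it, against 1.12% and 2.74% of all features. Without the block 3 were lower and 0 higher at an unadjusted p below 0.05, against 4.73% of all features lower. In a whole-embryo library, fewer cells of a territory and less RNA per cell cannot be told apart.

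**Figure D2:**
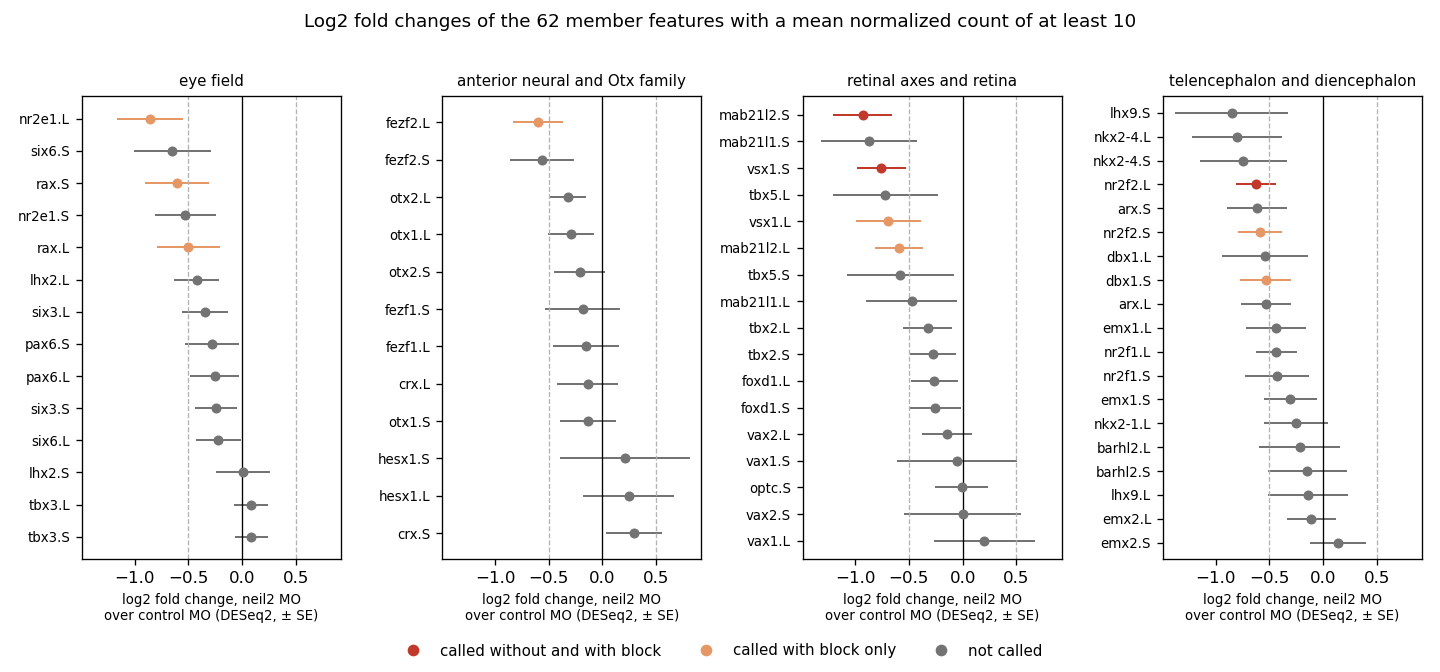
DESeq2 log2 fold changes, neil2 MO over control MO, of the 62 member features whose normalized count averaged 10 or more, by role; points are estimates without the replicate block, bars are standard errors and dashed lines mark 0.5 in either direction. Of the 62 estimates, 54 are negative, and none of the 8 positive ones is called.

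Among the anterior neural and Otx genes, fezf2.L was the feature called by DESeq2, with the block only, and edgeR with the block called fezf2.S as well. Fezf2 is a zinc finger repressor of forebrain patterning. The feature fezf2.L had 7.06, 8.80 and 8.20 CPM in neil2 MO embryos, against 12.5, 11.3 and 14.3 CPM in control MO embryos. All neil2 MO values lay below all control MO values. Its log2 fold change was -0.60 ± 0.23 (SE), with an adjusted p by DESeq2 of 0.225 without the block and 0.0767 with it. The feature fezf2.S was similarly separate, with a log2 fold change of -0.56 ± 0.30 (SE) that DESeq2 did not call. The related fezf1 had -0.15 ± 0.31 (SE) for the L copy and -0.18 ± 0.35 (SE) for the S copy, and its groups overlapped.

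The homeobox gene otx2 marks the forebrain and midbrain and lies upstream of eye field genes in Xenopus. The feature otx2.L had 45.1, 51.7 and 49.3 CPM in neil2 MO embryos, against 62.8, 63.2 and 63.4 CPM in control MO embryos. The control MO libraries were nearly identical, and all neil2 MO libraries lay well below them. Its log2 fold change was -0.32 ± 0.16 (SE), smaller than the 0.5 required of a called feature, and the adjusted p by DESeq2 was 0.518 without the block and 0.133 with it. The feature otx2.S had 19.1, 23.1 and 16.4 CPM in neil2 MO embryos, against 23.2, 28.2 and 19.0 CPM in control MO embryos. Each pair was lower in neil2 MO, by similar amounts, but the groups overlapped (log2 fold change -0.21 ± 0.23, SE).

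Other genes of this set were not called by DESeq2 with or without the block. The log2 fold changes of otx1, a relative of otx2 in the brain, were -0.29 ± 0.21 (SE) for otx1.L and -0.13 ± 0.26 (SE) for otx1.S. For crx, an Otx family factor of photoreceptors and the pineal, they were -0.14 ± 0.29 (SE) and 0.29 ± 0.26 (SE). The feature crx.S was the only one of 62 that was higher in neil2 MO in all 3 pairs, where 18.2% of all features were. The anterior repressor gene hesx1 had 0.24 ± 0.42 (SE) for hesx1.L and 0.21 ± 0.60 (SE) for hesx1.S, with wide errors at no more than 69 reads in any library. The 12 features had a median of -0.17, and 6 of them were lower in all 3 pairs, against 26.5% of all features.

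The retinal genes held 2 of the 3 features called without the block. The homeobox gene vsx1 acts in retinal bipolar cells in mouse. The feature vsx1.S had 9.67, 12.0 and 9.24 CPM in neil2 MO embryos, against 18.5, 20.3 and 15.3 CPM in control MO embryos. All neil2 MO libraries lay below all control MO libraries by over 3 CPM. Its log2 fold change was -0.76 ± 0.23 (SE), with an adjusted p by DESeq2 of 0.0557 without the block and 0.0026 with it. The call without the block was lost in 4 of the 6 fits that left out a library, namely those without neil2 MO replicate 1 or 3 (adjusted p = 0.319 and 0.207) or control MO replicate 1 or 2 (0.317 and 0.321). The call of vsx1.S with the block was lost without both replicate 1 or both replicate 2 libraries (adjusted p by DESeq2 0.527 and 0.158). It was kept without both replicate 3 libraries (adjusted p = 0.0479). The feature vsx1.L had 7.06, 14.2 and 7.41 CPM in neil2 MO embryos, against 13.9, 17.4 and 17.1 CPM in control MO embryos. Replicate 2 of neil2 MO stood above the other neil2 MO libraries and above the lowest control MO library, so the groups overlapped. Its log2 fold change was -0.69 ± 0.30 (SE) and was called by DESeq2 with the block (-0.76, adjusted p = 0.0174) and not without it (adjusted p = 0.345).

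The gene mab21l2 is needed for growth of the optic vesicle in mouse and zebrafish. The feature mab21l2.S had 4.57, 5.83 and 3.95 CPM in neil2 MO embryos, against 8.76, 10.6 and 9.02 CPM in control MO embryos. The feature mab21l2.L had 9.56, 13.4 and 11.2 CPM in neil2 MO embryos, against 19.2, 17.5 and 17.0 CPM in control MO embryos. In both copies all neil2 MO libraries lay below all control MO libraries. The log2 fold change of mab21l2.S was -0.93 ± 0.27 (SE), the lowest of the 62, and DESeq2 called it without the block (adjusted p = 0.0428) and with it (adjusted p = 0.00562). The call without the block was lost on leaving out any library but neil2 MO replicate 2 (adjusted p = 0.1004 to 0.278). The call with the block was lost on leaving out any pair (adjusted p by DESeq2 0.168 to 0.392). The log2 fold change of mab21l2.L was -0.60 ± 0.22 (SE) and was called with the block only (adjusted p by DESeq2 0.195 without and 0.0400 with it). The related mab21l1, an eye and lens gene in mouse, had -0.48 ± 0.42 (SE) for the L copy and -0.87 ± 0.44 (SE) for the S copy, and DESeq2 called neither with or without the block. When neil2 MO replicate 3 was left out, DESeq2 called mab21l1.S without the block. In the RefSeq annotation of a later assembly all 4 Mab21-like features overlap another protein-coding gene. Reads were counted without strand as far as is known, so their counts may include reads of those genes.

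Genes that set the axes of the retina were not called by DESeq2 with or without the block. The T-box genes tbx2 and tbx5 act on the dorsal side, and their log2 fold changes were -0.33 ± 0.23 (SE) for tbx2.L, -0.28 ± 0.22 (SE) for tbx2.S, -0.72 ± 0.49 (SE) for tbx5.L and -0.58 ± 0.50 (SE) for tbx5.S. All 4 features were lower in neil2 MO in all 3 pairs, although tbx5 had no more than 43 reads in any library. The homeobox genes vax1 and vax2 act on the ventral side and the optic stalk. Their values were 0.20 ± 0.47 (SE) for vax1.L, -0.05 ± 0.56 (SE) for vax1.S, -0.14 ± 0.23 (SE) for vax2.L and -0.00 ± 0.55 (SE) for vax2.S. The forkhead gene foxd1, of the temporal retina, had -0.27 ± 0.22 (SE) for foxd1.L and -0.25 ± 0.24 (SE) for foxd1.S. Opticin, a proteoglycan of the vitreous, was represented by optc.S alone, at -0.01 ± 0.25 (SE). The retinoic acid enzyme gene aldh1a3 was too low for a test, with at most 14 reads of aldh1a3.L and 2 of aldh1a3.S in any library. The 17 retinal features above the minimum count had a median of -0.33, and 12 were lower in all 3 pairs, against 26.5% of all features.

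In the telencephalon and diencephalon set, the orphan nuclear receptor gene nr2f2 held the 1 feature that DESeq2 called lower without the block. The gene encodes COUP-TFII, which acts in the forebrain and ventral eye and also in veins and mesenchyme. The feature nr2f2.L had 15.2, 17.1 and 16.3 CPM in neil2 MO embryos, against 25.5, 26.5 and 25.9 CPM in control MO embryos. The feature nr2f2.S had 17.1, 21.9 and 18.5 CPM in neil2 MO embryos, against 26.5, 31.2 and 32.1 CPM in control MO embryos. The groups were far apart in both copies, and the libraries of each group lay close together for nr2f2.L. The log2 fold change of nr2f2.L was -0.63 ± 0.19 (SE), and DESeq2 called it without the block (adjusted p = 0.0476) and with it (adjusted p = 0.00471). The call without the block was lost on leaving out any library but neil2 MO replicate 2 (adjusted p = 0.106 to 0.266). The call with the block was lost without both replicate 1 or both replicate 2 libraries (adjusted p by DESeq2 0.546 and 0.177). It was kept without both replicate 3 libraries (adjusted p = 0.0909). The log2 fold change of nr2f2.S was -0.58 ± 0.20 (SE), with an adjusted p by DESeq2 of 0.142 without the block and 0.00789 with it. Without the block edgeR called neither copy (adjusted p = 0.168 for nr2f2.L and 0.262 for nr2f2.S). Both nr2f2 features overlap a long noncoding RNA gene in the later RefSeq annotation, and so do pax6.L and crx.L. The paralog nr2f1 had the same log2 fold change of -0.43 in both copies, with SEs of 0.19 for nr2f1.L and 0.30 for nr2f1.S, and its groups did not overlap, but it was not called by DESeq2 with or without the block.

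The homeobox gene dbx1 marks progenitors in the diencephalon and along the neural tube. The feature dbx1.S had 9.89, 15.2 and 11.2 CPM in neil2 MO embryos, against 17.6, 17.7 and 19.5 CPM in control MO embryos. The neil2 MO libraries all lay below the control MO libraries, with neil2 MO replicate 2 nearest to them. Its log2 fold change was -0.54 ± 0.24 (SE), with an adjusted p by DESeq2 of 0.360 without the block and 0.0734 with it. The feature dbx1.L had the same estimate with a wider error (-0.54 ± 0.40, SE) and was not called.

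Other genes of this set were called only by edgeR with the block, or not at all. The interneuron homeobox gene arx had log2 fold changes of -0.53 ± 0.23 (SE) for arx.L and -0.62 ± 0.28 (SE) for arx.S, and its groups did not overlap. The NK2 genes of the ventral forebrain had -0.80 ± 0.42 (SE) for nkx2-4.L, -0.74 ± 0.40 (SE) for nkx2-4.S and -0.25 ± 0.30 (SE) for nkx2-1.L, which was the one copy of nkx2-1 found. The LIM homeodomain gene lhx9 had -0.14 ± 0.37 (SE) for lhx9.L and -0.85 ± 0.53 (SE) for lhx9.S. Both arx copies, both nkx2-4 copies and lhx9.S were among the 20 features called by edgeR with the block. For emx1, a gene of the dorsal telencephalon, the values were -0.44 ± 0.28 (SE) for emx1.L and -0.30 ± 0.24 (SE) for emx1.S. The groups of both copies were separate by a very narrow margin. The highest neil2 MO and lowest control MO libraries had 8.043 and 8.048 CPM for emx1.L and 10.67 and 10.75 CPM for emx1.S. Its paralog emx2 had -0.11 ± 0.23 (SE) for emx2.L and 0.14 ± 0.26 (SE) for emx2.S, with overlapping groups. The diencephalic homeobox gene barhl2 had -0.22 ± 0.38 (SE) for barhl2.L and -0.15 ± 0.37 (SE) for barhl2.S. Bsx, a homeobox gene of the hypothalamus and pineal, was too low for a test, at no more than 12 reads in any library. The 19 features above the minimum count had a median of -0.44, the lowest of the 4 sets, and all neil2 MO values lay below all control MO values in 11 of them, against 10.3% of all features.

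The members were then compared by replicate pair. Normalized counts averaged 10 or more in 62 features, and 54 of these had a negative log2 fold change, where 48.3% of 23651 such features did. At an unadjusted p below 0.05, DESeq2 without the block gave 15 lower members and 0 higher ones, against 4.73% of all features lower. The median log2 fold change was -0.31, against 0.01 over those 23651. In CPM, 41 of the 62 were lower in neil2 MO in all 3 pairs, where 26.5% of all features were. The same held for 7 of 10 muscle features, described below with other lists. In 28 of the 62 all neil2 MO values lay below all control MO values, against 10.3% of all features, and in 0 they all lay above, against 6.12%. The median difference in log2(CPM + 0.5) was -0.50 in replicate 1, -0.27 in replicate 2 and -0.34 in replicate 3, where all features had medians of -0.05, -0.05 and -0.02. The lower value of a pair was in neil2 MO for 59, 48 and 52 of the 62 features, against 56.3%, 56.5% and 52.2% of all features. Of the 6 libraries neil2 MO replicate 1 was the lowest for 36 of the 62 features, and no feature had its highest value there. The shares of all features with their lowest or highest value there were not computed. The summed CPM of all 66 features was 699, 875 and 779 in neil2 MO embryos and 972, 1035 and 953 in control MO embryos. Neil2 MO libraries thus held 0.720, 0.846 and 0.818 of the level of their control MO partners. Among other lists, described below, these ratios were 0.813, 0.891 and 0.836 for other eye and forebrain genes. They were 0.789, 0.823 and 0.862 for muscle and 0.775, 0.899 and 0.875 for pan-neural features. For epidermis they were 0.956, 0.939 and 0.928, and for cement gland 1.07, 0.990 and 1.07.

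**Figure D3:**
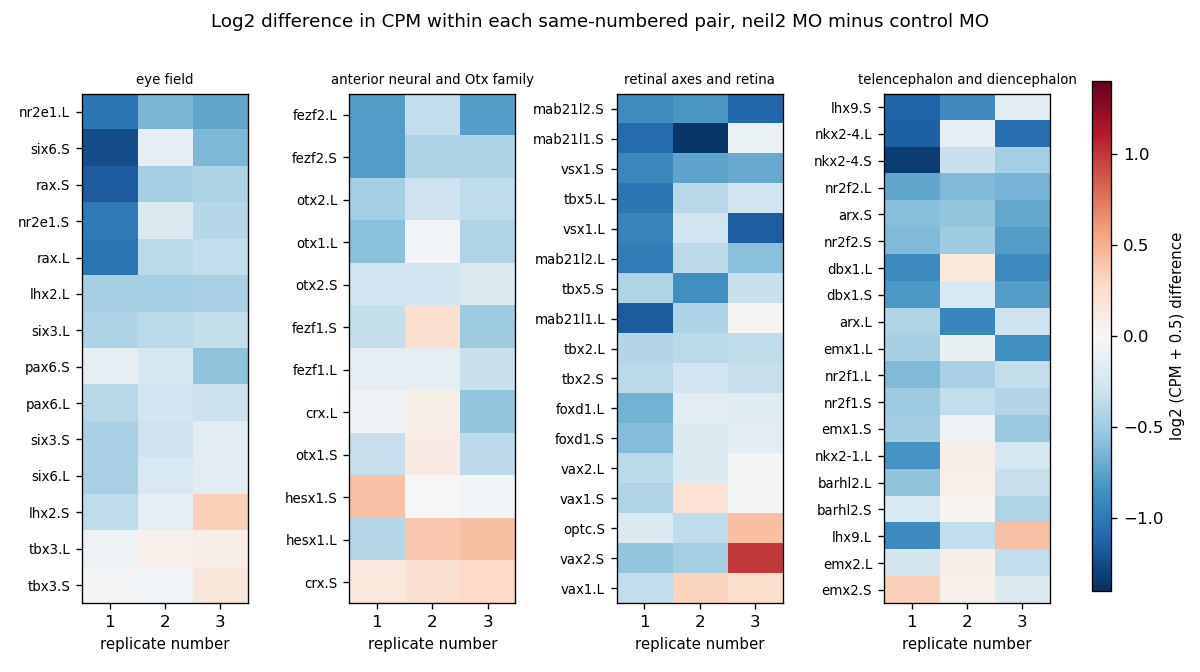
Difference in log2(CPM + 0.5), neil2 MO minus control MO, in each same-numbered pair for the 62 features, by role; blue is lower and red higher in neil2 MO. The replicate 1 column is blue for 59 features, replicate 2 for 48 and replicate 3 for 52. Of all features 56.3%, 56.5% and 52.2% were lower in these pairs.

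The homeologs were set against each other. Both copies were counted in the same libraries, so their changes are not independent. The share of equal signs over all pairs was not computed. Of the 30 genes with both copies above the minimum count, 26 had log2 fold changes of the same sign, 24 of them negative. The 2 with both copies positive were tbx3 and hesx1, and the 4 with opposite signs were lhx2, crx, vax1 and emx2. Limma without the block called a changed ratio of L to S in 0 of the 30 genes, against 0.441% of 7252 pairs. At an unadjusted p below 0.05 there were 2, and the share of all pairs at that p was not computed. With the block, limma called 1 of the 30, lhx9, against 2.84% of all pairs. The log2 ratio of L to S of lhx9 was 0.71 higher in neil2 MO (adjusted p in limma 0.0878 with the block and 0.458 without it). The count of 1 is near the share over all pairs. The feature lhx9.S had only 9 to 36 reads in neil2 MO and 20 to 34 in control MO. Reads that fitted both copies were not counted, so values of near-identical copies are uncertain. When L and S counts were summed, DESeq2 called vsx1, mab21l2 and nr2f2 lower, where 1.23% of all summed genes were. With the block, where 2.94% were, it also called rax, nr2e1, fezf2, arx, nkx2-4 and dbx1.

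**Figure D4:**
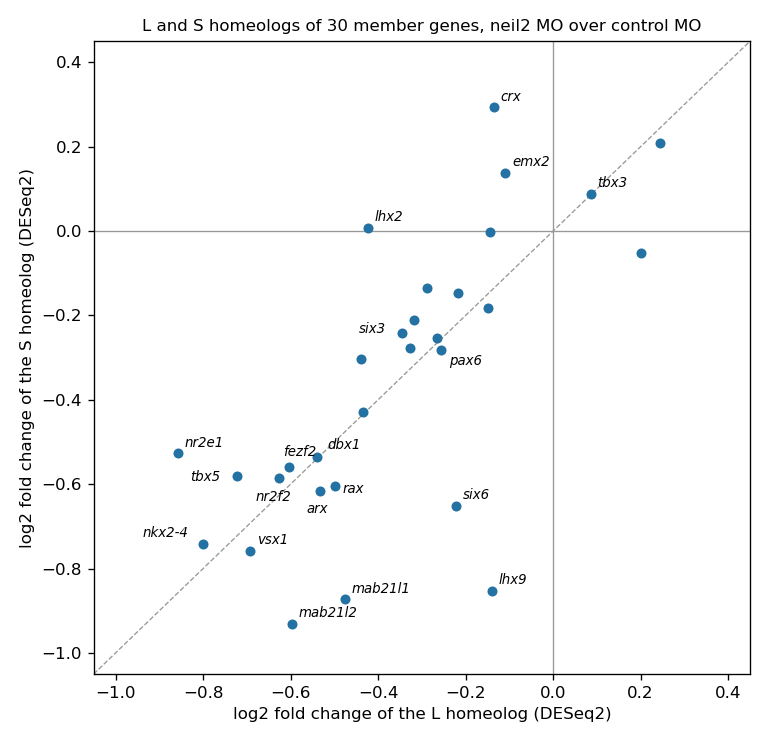
DESeq2 log2 fold changes, neil2 MO over control MO, of the L homeolog (x axis) against the S homeolog (y axis) for 30 member genes; the dashed line marks equal change. Of the 30 points, 24 lie in the lower left quadrant, where both copies are negative.

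Other genes of the eye and forebrain were described in the same way, from a list of 23 genes such as shh and isl1, of which 22 were found. Of its 41 features above the minimum count, 36 were negative, where 48.3% of all such features were, and the median was -0.21. In all 3 pairs 23 of the 41 were lower, against 26.5% of all features. All neil2 MO values lay below all control MO values in 12 of the 41, against 10.3% of all features. DESeq2 called 0 of them without the block, where 4 were lower and 0 higher at an unadjusted p below 0.05, against 4.73% of all features lower at that p. With the block it called 1 of the 41, which is near the share of 2.74% called lower over all features. That feature was foxn4.S, which encodes a forkhead factor of retinal progenitors. The feature foxn4.S had 8.26, 14.3 and 12.2 CPM in neil2 MO embryos, against 17.0, 19.7 and 15.9 CPM in control MO embryos (log2 fold change with the block -0.57, adjusted p = 0.0699). Its groups did not overlap. The edgeR test called 0 without the block and 3 with it, against 0.294% and 5.27% of all features lower, and the count of 3 is near the share over all features.

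Markers of other tissues give the levels that moved alongside. All 8 pan-neural features, such as those of sox2 and ncam1, were negative, where 48.3% of all features were, with a median of -0.16. Their summed CPM ranged from 569 to 633 in neil2 MO and from 703 to 735 in control MO. All 11 midbrain and hindbrain features were negative, against the same 48.3%, with a median of -0.22. DESeq2 without the block called 1 of them, against 1.12% of all features called lower. That feature was en1.L, an engrailed gene of the midbrain (-1.41 ± 0.45, SE, adjusted p = 0.0817). At an unadjusted p below 0.05, 1 of the 11 was lower, against 4.73% of all features. The edgeR test called 0 of the 11 without the block and 1 with it, against 0.294% and 5.27% of all features lower. Fits that left out a library were not examined for en1.L. The medians were -0.04 for 10 neural crest features and -0.00 for 6 epidermis features. The summed CPM of the epidermis list ranged from 5583 to 5889 in neil2 MO and from 6018 to 6268 in control MO, and that of the neural crest list from 313 to 389 in neil2 MO and from 323 to 413 in control MO. For 5 cement gland features, the cement gland being the adhesive organ at the front of the head, the median was -0.14, 2 of the 5 were positive, and the summed CPM ranged from 422 to 660.4 in neil2 MO and from 426 to 620.0 in control MO. Outside the ectoderm they were -0.23 for 10 muscle features and -0.15 for 8 endoderm features. At an unadjusted p below 0.05 by DESeq2, 3 of the 10 and 1 of the 8 were lower, against 4.73% of all features. The summed CPM of the muscle list ranged from 3751 to 4017 in neil2 MO and from 4433 to 5090 in control MO, and that of the endoderm list from 1989 to 2305 in neil2 MO and from 2039 to 2912 in control MO. Lower in all 3 pairs were 7 of 10 muscle, 5 of 8 pan-neural and 7 of 11 midbrain and hindbrain features. The counts were 4 of 10 for neural crest, 2 of 6 for epidermis, 2 of 5 for cement gland and 3 of 8 for endoderm. Of all features 26.5% were. The groups were separate, with neil2 MO lower, in 5 muscle, 3 pan-neural and 3 midbrain and hindbrain features. They were so in 1 neural crest, 1 epidermis, 0 cement gland and 2 endoderm features, against 10.3% of all features. The part of neural, epidermis, muscle or endoderm content in the values of the eye and forebrain genes was not tested. The 5 pigment cell features had a median of -0.28 with overlapping sums, and all 6 blood features were below the minimum count.

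**Figure D5:**
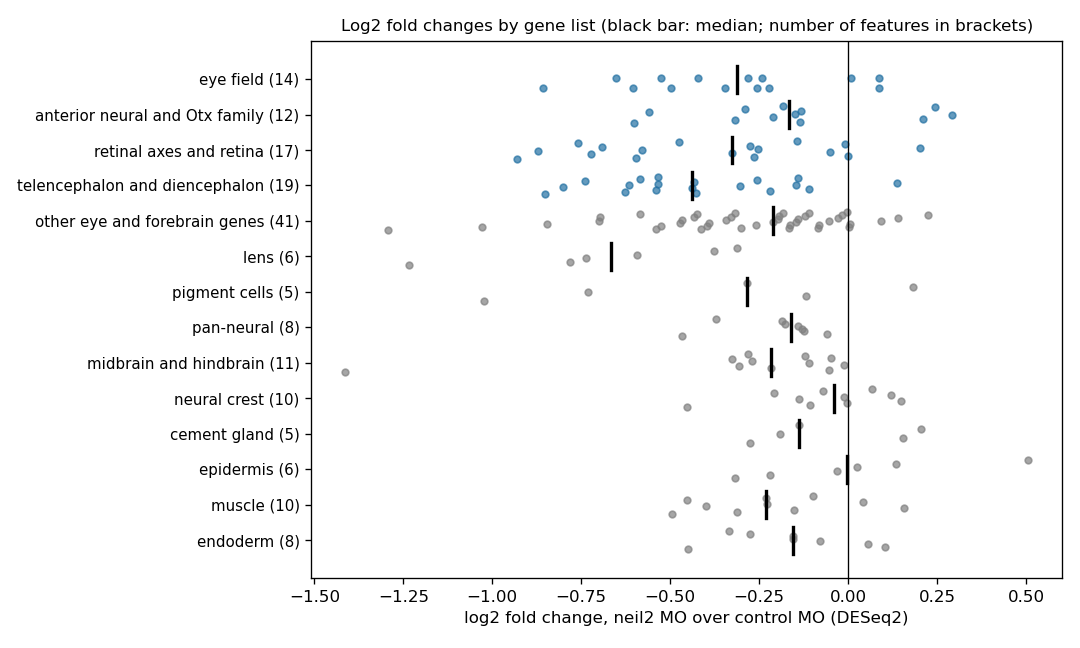
DESeq2 log2 fold changes, neil2 MO over control MO, of single features whose normalized count averaged 10 or more, in the 4 sets of members (blue) and in other lists (gray); black bars are medians and brackets give the number of features. The telencephalon and diencephalon set has the lowest median of the member sets (-0.44), the lens list the lowest of all (-0.67), and the epidermis list lies at -0.00.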

How the data were processed

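The deposited values are raw counts of reads per gene feature in 6 tables, 1 per library, which the authors made without normalization. Per the submitters' processing notes and the study's methods, reads were aligned with STAR 2.5.4b and counted on the JGI gene annotation with featureCounts 1.5.1, and reads that fitted several places were not counted. RNA was read from one end, and strand was not used as far as the sources say.

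Groups and replicate numbers were taken from the titles. A total of 0 columns were left without a sample. No pair of libraries matched within sampling noise (chi-square per degree of freedom 13.2 to 36.1). Same-numbered libraries were treated as pairs because their deviations from the group means correlated in each of the 3 pairs (r = 0.587, 0.569 and 0.634 over 23651 features). Over the 62 member features alone r was 0.174, 0.404 and 0.255. The labels do not say what a shared number stands for.

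Differential expression was tested over all features with the Wald test of DESeq2 1.42.0 in R 4.3.3 (fold changes not shrunken, independent filtering), the tool of the study's methods, with thresholds of 0.1 on the adjusted p and 0.5 on the log2 fold change. DESeq2 with the replicate block, edgeR 4.0.16 with and without it, other size factors, filters and thresholds, summed homeologs and fits without each library were alternatives, and leaving out both replicate 3 libraries was added after seeing the data. L to S ratios were tested with limma 3.58.1 on log2 ratios with a pseudocount of 0.5. Medians and counts used features with a mean normalized count of at least 10. The procedures were tested on simulated data whose planted changes were larger than those of the members. That test does not measure the power to find changes of the members' size.

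Features called by DESeq2 with or without the block and both copies of rax, pax6, six3, six6, otx2, lhx2 and nr2e1 were given library by library, and genes of other lists were named where called or to say what a list holds. The members and lists were chosen with earlier results of these data known. In these libraries 3 counts, the floor used, correspond to 0.125 to 0.260 CPM, which covers counting error only. With 3 libraries a group, an exact permutation test cannot go below p = 0.1, so none was run. Levels were not compared between genes, since no gene lengths were used. The RefSeq annotation of a later assembly served only for neighbouring genes. The S copy of neil2 was not analysed here, and a gene of the list of other eye and forebrain genes is not reported here.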

Additional observations from a re-analysis of the deposited data

How the results depend on the processing

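The share of all features called lower is given in brackets. The count of 3 called members (1.12%) moved to 0 with edgeR (0.294%). It moved to 11 with DESeq2 and the replicate block (2.74%) and to 20 with edgeR and the replicate block (5.27%). With size factors from the library totals it was 5 (1.49%), where mab21l2.L and nr2f2.S were added. The count ranged from 0 to 9 when libraries were left out without the block (0.510% to 1.14%). It was 0 without both replicate 3 libraries (0.924%). When a pair was left out with the block it ranged from 0 to 4 (0.559% to 2.36%). It was 3 with TMM size factors (1.22%), a minimum mean count (1.36%), no independent filtering (0.558%) or no fold filter (1.13%). At an adjusted p below 0.05 it was 2 (0.767%). The count of members called higher was 0 in all these fits, where 71 to 980 of all features were called higher. The median log2 fold change of the members ranged from -0.45 to -0.19 without a library and from -0.43 to -0.26 with the block and without a pair. The sign of lhx2.S reversed to -0.0046 with edgeR, -0.0040 with DESeq2 and the replicate block, -0.019 with edgeR and the replicate block and -0.046 with library totals, and its range was -0.091 to 0.15 without a library (-0.18 without both replicate 3 libraries) and -0.19 to 0.15 with the block and without a pair. The number of genes with a called L to S ratio moved to 1 with the replicate block, against 2.84% of all pairs. Features with few reads were tbx5 (at most 43 in any library), vax1 (49) and hesx1 (69), among others. These had standard errors of 0.42 to 0.60 on the log2 scale, against 0.29 for rax.L and 0.30 for rax.S. The power to detect a change in them was not measured. The cause of these differences was not tested.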

Other observations

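The lens, which forms from surface ectoderm next to the optic vesicle, was represented by 15 features of 8 genes. Normalized counts averaged 10 or more in 6 of them. All 6 had a negative log2 fold change, where 48.3% of all such features did, and the median was -0.67. DESeq2 called 1 of the 6 lower without the block and 2 with it, against 1.12% and 2.74% of all features. At an unadjusted p below 0.05 without the block, 2 of the 6 were lower, against 4.73% of all features. The edgeR test called 0 of the 6 without the block and 2 with it, against 0.294% and 5.27% of all features lower. The feature called by DESeq2 without the block was prox1.S, a homeobox gene of lens fibers and also of lymphatic, liver and neural cells. It had 2.93, 1.32 and 2.37 CPM in neil2 MO embryos, against 5.62, 5.62 and 4.85 CPM in control MO embryos. All neil2 MO libraries lay below all control MO libraries, and the DESeq2 log2 fold change was -1.23 ± 0.35 (SE, adjusted p = 0.0309). Fits that left out a library were not examined for prox1.S. The lens and midbrain homeobox gene feature pitx3.L had 6.36, 7.15 and 12.9 CPM in neil2 MO embryos, against 15.3, 10.9 and 15.3 CPM in control MO embryos. Its groups overlapped, and DESeq2 called it with the replicate block (-0.65, adjusted p = 0.0784) and not without it (-0.59, adjusted p = 0.473). The crystallin and hsf4 features of the list were below the minimum count.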
